A study of Homo sapiens with 6 samples.

Results

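The lysosome of cockroach extract-exposed airway epithelial cells was examined through 37 genes, chosen by name: *GLB1*, which encodes the beta-galactosidase behind the senescence stain of the study, and genes for other acid hydrolases, hydrolase cofactors, sterol transporters, membrane proteins, subunits of the proton pump and the transcription factors of the lysosomal program. All 37 were rows of the deposited count table of 61228 genes, and all 37 passed the filter on low counts together with 15373 genes in all. RNA-seq was performed on HBECs, human bronchial epithelial cells of wild-type genotype from an immortalized line, so the data describe a single line in culture. Cells received cockroach extract (CRE) for 24 h (n = 3 libraries), or VAF347, a small-molecule agonist of the aryl hydrocarbon receptor (AhR), followed by CRE (n = 3 libraries). All 6 libraries therefore share CRE, and cells without CRE or with VAF347 alone were not analysed here. The comparison asks which lysosomal mRNAs differ when AhR is activated during allergen exposure.

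Lysosomes are acidic organelles in which soluble hydrolases break down glycans, proteins, lipids and nucleic acids. A V-type proton ATPase keeps the lumen acid, heavily glycosylated membrane proteins such as LAMP1 and LAMP2 line the limiting membrane, and TFEB, TFE3 and MITF switch on many lysosomal genes by binding a shared promoter element, the CLEAR element, whose centre is an E-box. Senescent cells commonly enlarge this compartment, and the senescence-associated beta-galactosidase (SA-β-Gal) stain reads the activity of the GLB1 enzyme at a pH above its optimum. RNA-seq reads mRNA, so neither enzyme activity nor protein was measured in these libraries.

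The promoters of the 3 genes on which the results turn are shown first, from 90 bases before to 10 bases after the transcription start annotated by RefSeq (GRCh38.p14, minus strand in each case, written 5′ to 3′ along the gene). Capitals mark the E-box CACGTG. The windows lie at chr3:33096813-33096912 for *GLB1*, chr1:23868281-23868380 for *FUCA1* and chr11:1763918-1764017 for *CTSD*.
GLB1: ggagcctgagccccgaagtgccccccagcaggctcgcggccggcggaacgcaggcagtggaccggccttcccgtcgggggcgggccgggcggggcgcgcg
FUCA1: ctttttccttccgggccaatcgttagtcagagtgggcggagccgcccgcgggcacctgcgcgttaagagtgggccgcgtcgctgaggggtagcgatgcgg
CTSD: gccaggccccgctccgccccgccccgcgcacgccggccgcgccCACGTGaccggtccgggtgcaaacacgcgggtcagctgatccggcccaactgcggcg

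The libraries held 8873160 to 10750283 counts each, and single members held 49 to 15424 counts, so counting error was small for most of them. The AhR targets *CYP1A1*, *CYP1B1*, *AHRR*, *TIPARP* and *NQO1* were all higher with VAF347 (5 of 5 by edgeR, log2 fold changes of 0.86 to 6.20), in every library labelled with the agonist. Of 8 epithelial markers, 7 passed the filter and *TP63* had 0 or 1 count. Of 8 leukocyte markers 2 passed (*CD14* and *CSF1R*) and *PTPRC* had at most 2 counts, and the summed level of the list was 17.1 to 20.4 TPM (transcripts per 1000000) with CRE and 11.7 to 13.6 TPM with CRE + VAF347. Of 7 fibroblast and endothelial markers 4 passed, *DCN* and *LUM* were at 0, and the sums were 26.7 to 28.2 and 19.0 to 23.6 TPM. The leukocyte marker *CSF1R* and the endothelial markers *VWF* and *CDH5* had counts and fell with VAF347 by 0.59, 1.45 and 0.84 on the log2 scale, and the epithelial markers *KRT7* and *KRT19* fell by 0.29 and 0.38. Their part in the lysosomal results was not tested. The third CRE library stood apart in several members, with *CD63* at 163.8 CPM (counts scaled to 1000000 a library) against 256.0 and 257.8 in the other CRE libraries, and without it 4 members with log2 fold changes beyond 0.1 came closer to 0 by over 1.5 times and *CD63* changed sign, as given beside each.

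Most of the lysosomal program differed little between the groups. *FUCA1*, which encodes the fucosidase that removes fucose from glycoproteins and glycolipids, rose 1.81-fold with VAF347, and *CTSD*, which encodes the aspartic protease cathepsin D, fell by 28.8%. The other 35 members, *GLB1* included, did not pass the test, with log2 fold changes between -0.46 and 0.19. The main fit was edgeR's quasi-likelihood F test, with p-values adjusted by Benjamini-Hochberg over all 15373 genes and called under 0.05. It called 2 of 37 members (5.41%) against 5.42% of all genes tested, so in this fit the share was near the background. In each direction 1 member was called (2.70%), against 4.07% of all genes in the lower direction and 1.35% in the higher direction. With the further requirement of an absolute log2 fold change over 0.5, which the methods of the study also used, *FUCA1* alone passed, against 2.21% of all genes, and *CTSD* at -0.49 lay just inside that limit. Other fits gave other counts, here with the share of all genes called by the same fit: DESeq2 called 4 members (4.5% of all genes), edgeR without a filter on low counts 4 (5.56%) and edgeR without the third CRE library 5 (8.26%). Without CRE + VAF347 library 1, 2 or 3 edgeR called 2 members each time (2.43%, 2.16% and 1.96%). Limma on log2(TPM + 1), on log2(TPM + 0.1) and on log2(TPM + 1) without a filter called 1, 1 and 0 members, against 0.545%, 0.533% and 0.112% of all genes. In each of these limma fits 4 members had an unadjusted p under 0.05. The share of all genes at that level was worked out only for the main edgeR fit (20.8%), so these counts have no background of their own.

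**Figure D1:**
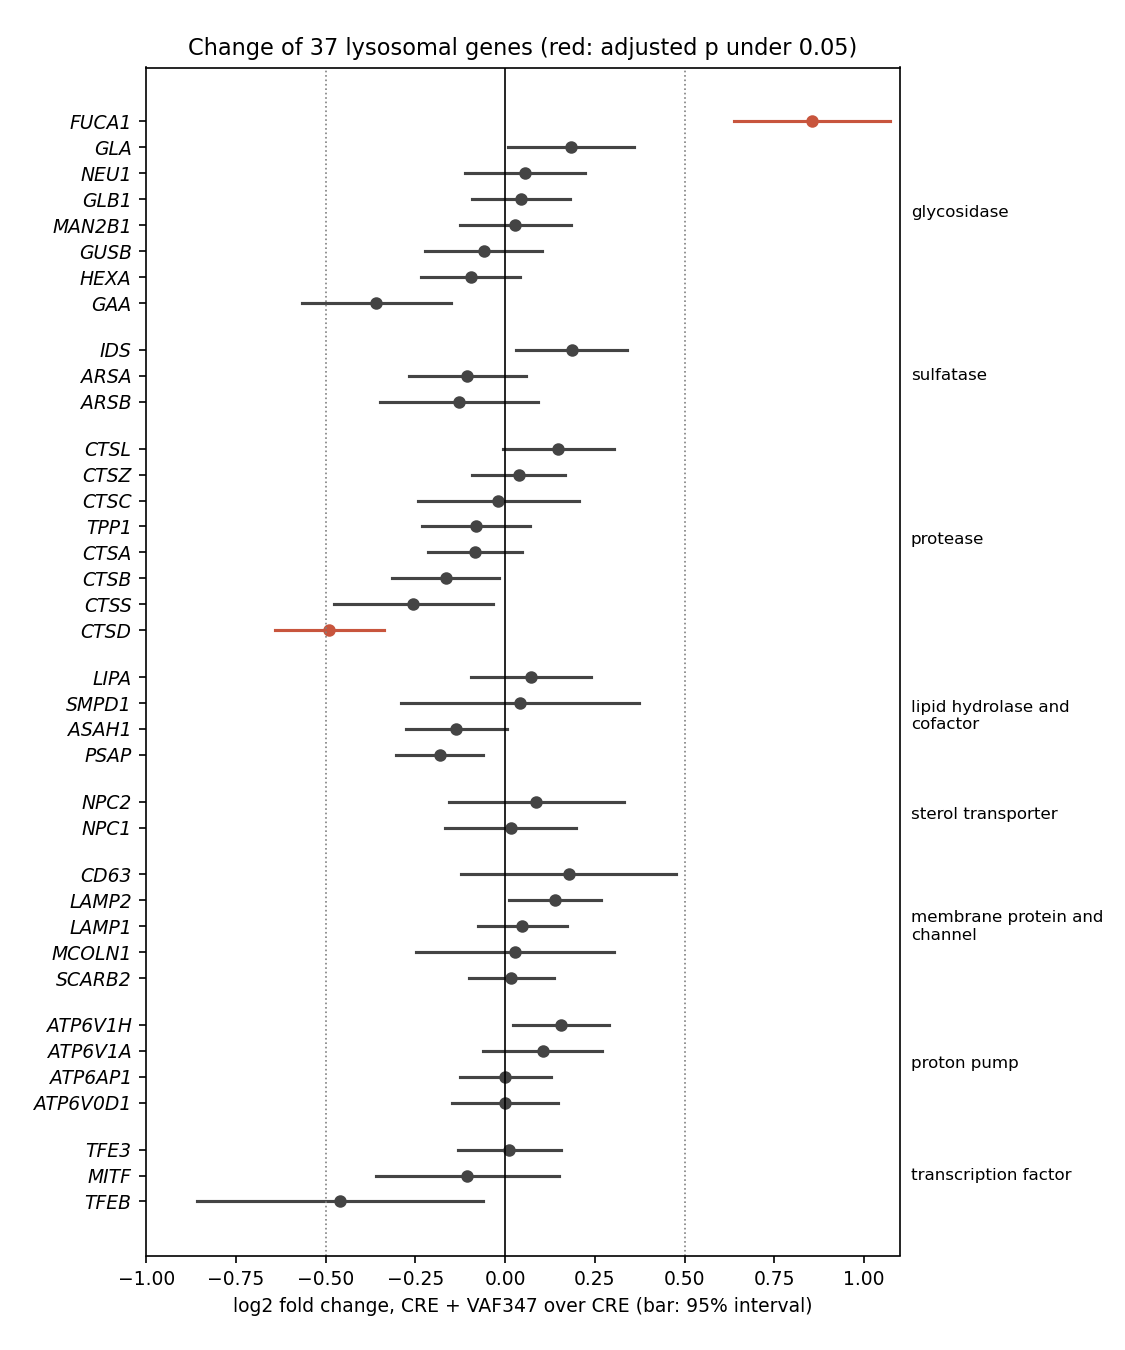
Log2 fold change of the 37 lysosomal genes, CRE + VAF347 over CRE, on the horizontal axis (points, edgeR estimates from n = 3 libraries a group; bars, 95% intervals), grouped by role. *FUCA1* at 0.85 and *CTSD* at -0.49 are the called members, and most other intervals cross 0.

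The direction of change was mixed, with 21 members above and 16 below 0. The median log2 fold change of the members was 0.02, and that of all genes tested was 0.01. An unadjusted p under 0.05 was reached by 11 members (29.7%, against 20.8% of all genes). The CPM values of the groups did not overlap in 12 members (32.4%, against 27.3% of all genes): 7 were lower with VAF347 in every library (*GAA*, *CTSB*, *CTSD*, *CTSS*, *ASAH1*, *PSAP* and *TFEB*, against 14.8% of all genes) and 5 were higher (*GLA*, *FUCA1*, *CTSL*, *LAMP2* and *ATP6V1H*, against 12.5%). In the main edgeR fit the standard errors ran from 0.05 to 0.18. There the whole 95% interval lay within 0.5 of 0 on the log2 scale in 33 of 37 members. The 4 exceptions were *FUCA1*, *CTSD*, *GAA* and *TFEB*. With limma on log2(TPM + 1) the intervals of other members also passed 0.5, among them *GLB1* (-0.58 to 0.06) and *SMPD1* (-0.72 to 0.04). In bulk RNA, a change in the share of cells that express a gene and a change in RNA per cell cannot be told apart.

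*GLB1* (chromosome 3, chr3:32996609-33097202 on GRCh38, minus strand) was measured by 655 to 748 counts a library. Its level was 71.5, 69.1 and 69.9 CPM with CRE and 74.8, 68.9 and 73.4 CPM with CRE + VAF347. The groups overlapped, the lowest value of all being a VAF347 library. The means were 70.2 ± 1.26 CPM (SD, n = 3) and 72.4 ± 3.12 CPM (SD, n = 3). The log2 fold change was 0.04 with a standard error of 0.06 (edgeR adjusted p = 0.726), and its 95% interval of -0.09 to 0.18 corresponds to a change in *GLB1* counts between -6.20% and 13.4%. The small gene *TMPPE* lies on the same strand within *GLB1* and had 14 to 27 counts a library, and reads that fit both genes could have been counted for either.

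**Figure D2:**
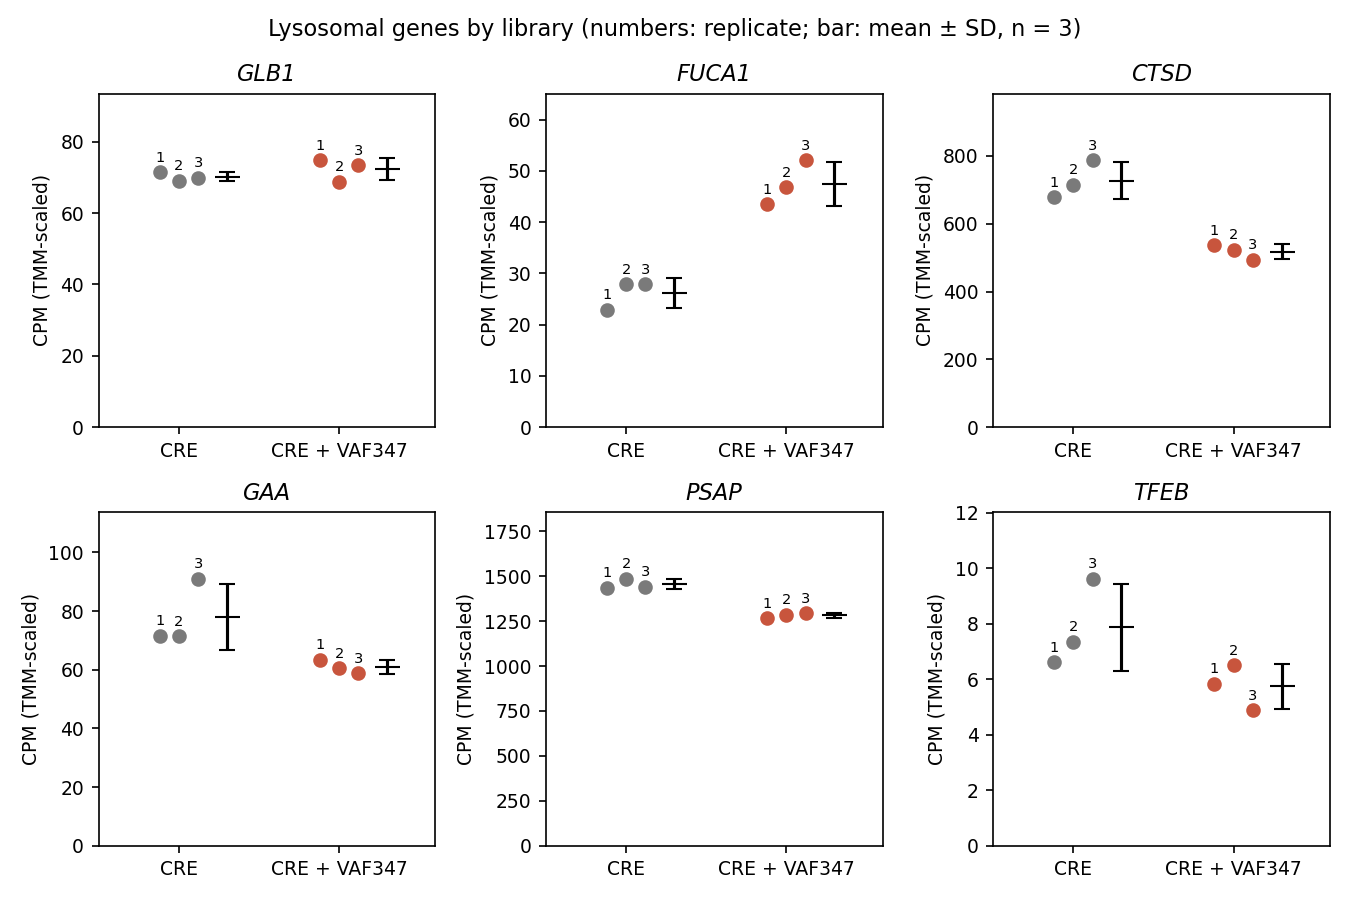
Level in CPM (vertical axis, linear, from 0) of *GLB1* and other members in each library (points) with the mean and SD of n = 3 libraries a group. The groups overlap in *GLB1* (68.9 to 74.8 CPM over all 6 libraries) and do not overlap in *FUCA1* or *CTSD*.

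The deposited TPM values, which divide each count by an effective transcript length estimated in each library, gave another picture of *GLB1*. The values were 61.9, 47.9 and 72.8 TPM with CRE and 50.7, 47.9 and 51.1 TPM with CRE + VAF347. The mean was thus lower with VAF347 (60.8 ± 12.5 against 49.9 ± 1.77 TPM, SD, n = 3), while the groups still overlapped. The length that links count to TPM, expressed relative to the median gene of its library, was 0.792, 0.990 and 0.757 with CRE and 1.03, 1.01 and 1.02 with CRE + VAF347. This difference in estimated *GLB1* length (0.28 on the log2 scale) was exceeded by 5.11% of all genes. When the lengths were entered as offsets in edgeR, the *GLB1* log2 fold change was -0.24 (adjusted p = 0.364), and limma on log2(TPM + 1) gave -0.26 (adjusted p = 0.568). The sign of the *GLB1* difference therefore depended on whether transcript length was used, and it passed the test in neither form. Whether the transcripts of *GLB1* or their assignment differed between the libraries was not tested.

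**Figure D3:**
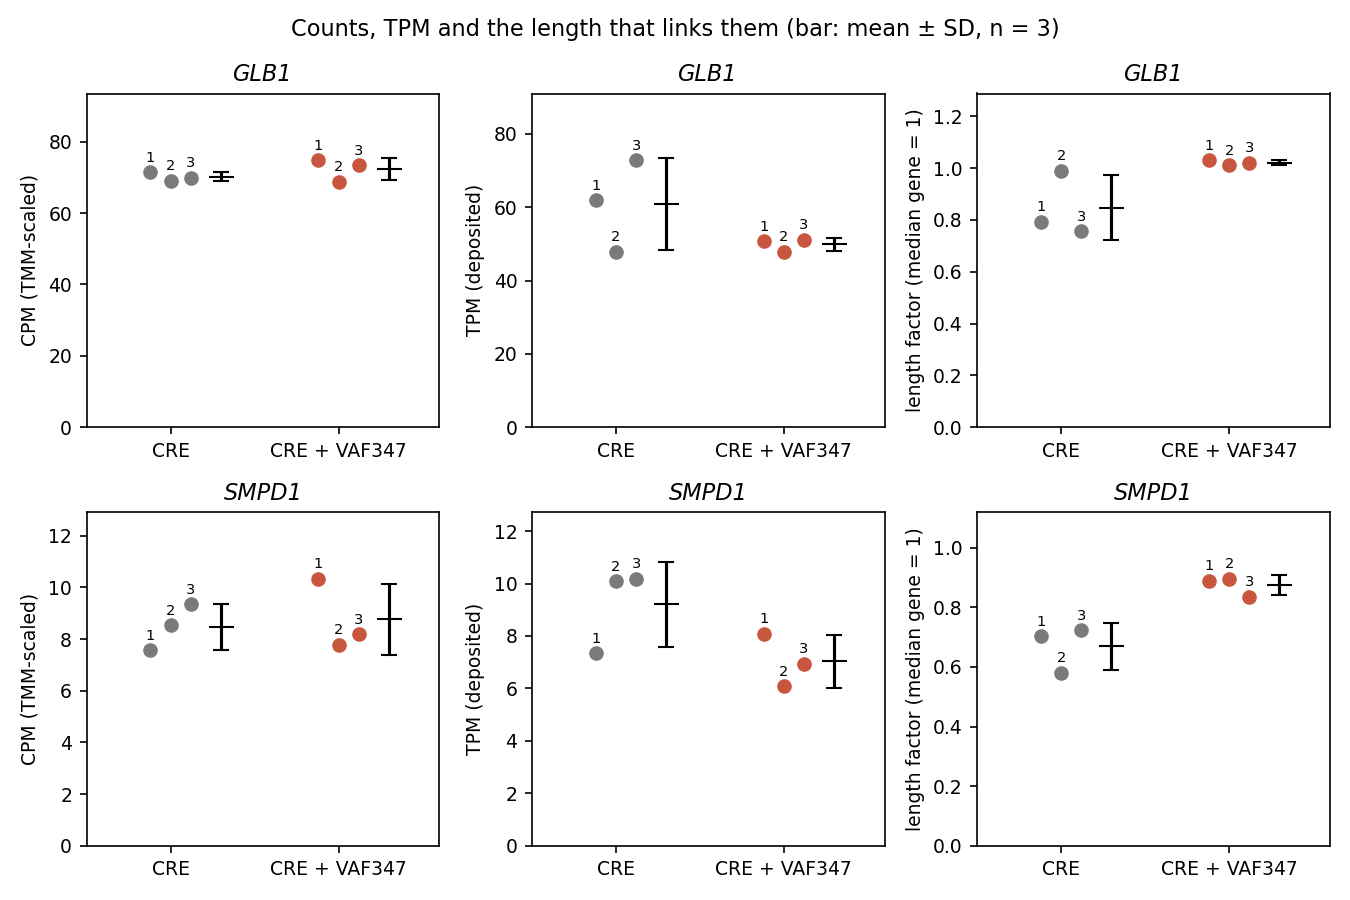
*GLB1* (upper row) and *SMPD1* (lower row) in each library (points, numbered by replicate; bars, mean and SD of n = 3) as CPM (left), deposited TPM (middle) and the length that links them, relative to the median gene of the library (right). CPM overlaps between CRE and CRE + VAF347 in both genes, while every VAF347 library has the larger length, 1.01 to 1.03 in *GLB1* against 0.757 to 0.990 with CRE.

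*SMPD1*, which encodes the acid sphingomyelinase that cleaves sphingomyelin to ceramide, was the other member of this kind. Its counts differed by 0.04 on the log2 scale (SE 0.15, edgeR adjusted p = 0.911), whereas length offsets gave -0.34. The estimated length differed by 0.39 on the log2 scale, which 2.65% of all genes exceeded. In the remaining 35 members the length difference was at most 0.15.

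Of the 8 glycosidases, *FUCA1* rose and the other 7 did not pass the test (group median log2 fold change 0.04). *FUCA1* (chromosome 1, chr1:23845077-23868290, minus strand, no overlapping gene in the annotation) had 22.9, 27.9 and 27.9 CPM with CRE and 43.5, 46.8 and 52.1 CPM with CRE + VAF347. Every VAF347 library lay well above the highest CRE library, and the means were 26.2 ± 2.90 and 47.4 ± 4.34 CPM (SD, n = 3). The log2 fold change was 0.85 with a standard error of 0.10 (95% interval 0.64 to 1.07, edgeR adjusted p = 0.000649), which ranked 277 of 15373 by absolute size. The deposited TPM showed the same direction, and limma on log2(TPM + 1) called *FUCA1* (adjusted p = 0.0431) except without a filter on low values (adjusted p = 0.153).

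*GAA*, which encodes the acid alpha-glucosidase that degrades glycogen, had 71.5, 71.4 and 91.0 CPM with CRE and 63.4, 60.4 and 58.9 CPM with CRE + VAF347. All VAF347 libraries were lower, the third CRE library was well above the others, and the log2 fold change of -0.36 (SE 0.09) had an edgeR adjusted p of 0.0513. Without the third CRE library the log2 fold change was -0.23 and the edgeR adjusted p 0.0294, and DESeq2 gave 0.0442. EdgeR also called *GAA* without the first CRE library (0.0481), without a filter (0.000339) and with at least 10 counts in every library (0.0429). It was not called with length offsets (edgeR adjusted p = 0.227) or in limma on log2(TPM + 1) (0.485). Without CRE + VAF347 library 1, 2 or 3 the edgeR adjusted p was 0.109, 0.158 and 0.18. The call of *GAA* thus depended on the fit. *GLA*, the alpha-galactosidase of glycosphingolipid breakdown, was at 38.9 ± 2.69 and 44.1 ± 2.75 CPM (SD, n = 3) and did not pass (log2 fold change 0.18, edgeR adjusted p = 0.219). *HEXA*, a subunit of the hexosaminidase that degrades ganglioside, the sialidase *NEU1*, the mannosidase *MAN2B1* and the glucuronidase *GUSB* had log2 fold changes of -0.10, 0.06, 0.03 and -0.06. Like *GLB1*, *HEXA* and *MAN2B1* share their strand with an overlapping protein-coding gene model, as do *IDS*, *CTSD* and *MCOLN1*, and the assignment of reads within these 6 pairs is less certain.

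Among the proteases 6 of 8 log2 fold changes were below 0, the group median was -0.08, and *CTSD* alone was called. *CTSD* (chromosome 11, chr11:1752752-1764573, minus strand) encodes one of the most abundant lysosomal proteases. It had 678.3, 715.4 and 787.3 CPM with CRE and 536.4, 523.4 and 493.5 CPM with CRE + VAF347. The lowest CRE library was above every VAF347 library, and the means were 727.0 ± 55.4 and 517.8 ± 22.0 CPM (SD, n = 3). The log2 fold change was -0.49 with a standard error of 0.07 (95% interval -0.64 to -0.34, edgeR adjusted p = 0.00238). On TPM the direction was the same but the call was lost (limma on log2(TPM + 1), adjusted p = 0.131). An overlapping gene model on the same strand had 61 to 87 counts a library, against 4774 to 8423 for *CTSD*.

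No cysteine protease among the 37 members passed the test as described above. *CTSS*, a cathepsin known from antigen-presenting cells, had 90.9, 93.4 and 89.3 CPM with CRE and 87.3, 79.5 and 62.7 CPM with CRE + VAF347, with a log2 fold change of -0.26 (SE 0.10, edgeR adjusted p = 0.177). The VAF347 libraries were all lower but spread widely, and without the third of them the log2 fold change was -0.14. Without a filter on low counts edgeR called *CTSS* (adjusted p = 0.019). *CTSB*, a broadly expressed cathepsin, was at 521.0 ± 25.1 and 464.5 ± 31.2 CPM (SD, n = 3; log2 fold change -0.17, adjusted p = 0.192). *CTSL*, another cathepsin, was at 118.3 ± 10.4 and 131.0 ± 2.02 CPM and pointed the other way (log2 fold change 0.15, adjusted p = 0.256, and 0.08 on the log2 scale without the third CRE library). The dipeptidyl peptidase *CTSC* (log2 fold change -0.02), the carboxypeptidase *CTSZ* (0.04), the tripeptidyl peptidase *TPP1* (-0.08) and *CTSA* (-0.08), the protective protein that holds GLB1 and NEU1 in a complex, were within 0.1 of 0.

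No sulfatase passed the test in edgeR or DESeq2, and 1 of the 3 had an unadjusted p under 0.05. That gene was *IDS*, the iduronate sulfatase of heparan and dermatan sulfate breakdown, at 97.7, 98.2 and 112.7 CPM with CRE and 112.7, 116.9 and 121.4 CPM with CRE + VAF347 (log2 fold change 0.19, edgeR adjusted p = 0.162). The third CRE library was level with the lowest VAF347 library. Without it *IDS* was called, at a log2 fold change of 0.26 (edgeR adjusted p = 0.00828). With all libraries, length offsets gave 0.08 (edgeR adjusted p = 0.682) and limma on log2(TPM + 1) gave 0.04 (adjusted p = 0.94). *ARSA*, the arylsulfatase that acts on sulfatide, and *ARSB*, which acts on dermatan sulfate, had log2 fold changes of -0.11 and -0.13, the latter being -0.04 without the third CRE library.

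Among the 4 genes of lipid breakdown, *PSAP*, the precursor of the saposins that present sphingolipids to their hydrolases, had 1437, 1486 and 1442 CPM with CRE and 1267, 1286 and 1295 CPM with CRE + VAF347. The groups were far apart relative to their spread, although the difference was small (log2 fold change -0.18, SE 0.06) and the edgeR adjusted p was 0.0845. DESeq2 called *PSAP* (adjusted p = 0.0463), as did edgeR without the third CRE library (adjusted p = 0.0158). The acid ceramidase *ASAH1* was at 93.7 ± 5.40 and 85.2 ± 2.04 CPM (log2 fold change -0.14, edgeR adjusted p = 0.253), and the acid lipase *LIPA* had a log2 fold change of 0.07. The sterol transporters *NPC1* and *NPC2*, which pass cholesterol out of the lysosome, had log2 fold changes of 0.02 and 0.09, and neither had an unadjusted p under 0.05. *NPC2* was spread over 144.5 to 200.6 CPM within the CRE group, with the third library lowest.

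All 5 membrane proteins had log2 fold changes above 0 (0.02 to 0.18), and none was called by edgeR or DESeq2. *LAMP2* had 150.1, 145.4 and 141.8 CPM with CRE and 166.7, 160.6 and 154.0 CPM with CRE + VAF347, without overlap (log2 fold change 0.14, SE 0.06, edgeR adjusted p = 0.207), and it alone had an unadjusted p under 0.05. *LAMP1* was at 464.3 ± 11.2 and 480.0 ± 11.4 CPM (SD, n = 3), and *SCARB2*, the receptor that carries glucocerebrosidase to the lysosome, at 154.3 ± 0.590 and 156.1 ± 2.20 CPM. The tetraspanin *CD63* had a log2 fold change of 0.18, which became -0.01 without the third CRE library. *MCOLN1*, the lysosomal calcium channel, was low, at 11.6 to 12.6 CPM with CRE and 10.4 to 13.7 CPM with CRE + VAF347.

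The 4 proton pump genes also gave no call in edgeR or DESeq2, and 1 had an unadjusted p under 0.05. *ATP6V1H*, a regulatory subunit of the cytosolic sector, had 66.9, 67.4 and 70.3 CPM with CRE and 75.3, 78.4 and 74.3 CPM with CRE + VAF347, without overlap (log2 fold change 0.16, edgeR adjusted p = 0.173). The catalytic subunit *ATP6V1A* was at 96.8 ± 6.87 and 104.0 ± 7.70 CPM. *ATP6V0D1*, of the membrane sector, and the accessory subunit *ATP6AP1* had log2 fold changes of -0.00 and 0.00 with standard errors of 0.07 and 0.06.

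None of the 3 transcription factors passed the test in edgeR or DESeq2. *TFEB* had 6.63, 7.36 and 9.63 CPM with CRE and 5.84, 6.52 and 4.89 CPM with CRE + VAF347, from 49 to 103 counts a library. The groups did not overlap, but the gap between them was small, and the estimate was the least precise of all members (log2 fold change -0.46, SE 0.18, 95% interval -0.86 to -0.06, edgeR adjusted p = 0.178, unadjusted p = 0.0277). Without the third CRE library, the highest of all, it was -0.29 (adjusted p = 0.388). *TFE3* had 71.6, 74.5 and 73.0 CPM with CRE and 71.7, 70.4 and 78.6 CPM with CRE + VAF347, with overlapping groups (log2 fold change 0.01, SE 0.07, adjusted p = 0.947). *MITF* had 10.8, 9.81 and 10.7 CPM with CRE and 9.66, 10.1 and 9.38 CPM with CRE + VAF347, also overlapping (log2 fold change -0.11, SE 0.12, adjusted p = 0.653).

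The sites these factors bind were looked for in the RefSeq promoter windows of GRCh38.p14, from 250 bases before to 50 after each start, on both strands. Windows were given for 28 members (43 windows), and not for *HEXA*, *ARSA*, *CTSB*, *CTSS*, *ASAH1*, *PSAP*, *LAMP2*, *ATP6V1A* and *ATP6V1H*. The central letters of the CLEAR element, TCACGTGA, were in 5 of 43 member windows (11.6%), against 0.98% of 35116 windows of all genes, and the E-box CACGTG, which every CLEAR match also holds, was in 9 (20.9%, against 7.26%). The core of the AhR site, GCGTG, was in 19 (44.2%, against 36.5%). Counted by gene over all its windows, it was in 17 of 28 members (60.7%, against 40.6% of all genes), and this was not tested. The *GLB1* and *FUCA1* windows held none of these letters, and the *CTSD* window held an E-box at position -47 from the start and 3 AhR cores. The 5 genes with TCACGTGA were *GAA*, *LAMP1*, *MCOLN1*, *CTSA* and *ATP6V0D1*, and none of them was called (log2 fold changes -0.36, 0.05, 0.03, -0.08 and -0.00). Many lysosomal genes share this element, so its larger share among the members describes the choice of genes and not these libraries. *GAA*, *LAMP1* and *MCOLN1* are shown because each holds the element more than once within 100 bases, in the same frame as the promoters above and with the E-box or CLEAR letters in capitals. They lie on the plus strand at chr17:80101491-80101590, chr13:113297149-113297248 and chr19:7522534-7522633.
GAA: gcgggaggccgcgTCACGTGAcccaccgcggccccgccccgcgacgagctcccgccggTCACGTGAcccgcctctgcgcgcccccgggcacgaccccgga
LAMP1: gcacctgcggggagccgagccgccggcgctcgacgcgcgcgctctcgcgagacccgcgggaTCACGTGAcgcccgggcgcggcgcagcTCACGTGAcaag
MCOLN1: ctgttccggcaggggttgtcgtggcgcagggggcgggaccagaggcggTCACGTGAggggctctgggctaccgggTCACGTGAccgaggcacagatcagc

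The levels of the genes, compared per transcript length in TPM, spanned a wide range. *PSAP* was the highest member (1185 ± 177 TPM with CRE, 953 ± 47.0 TPM with CRE + VAF347, SD, n = 3), followed by *NPC2*, and *TFEB* was the lowest (3.90 ± 0.940 and 2.82 ± 0.556 TPM). *CTSD* was above *CD63* by the CRE means (485 ± 78.4 against 477 ± 61.9 TPM), but *CD63* was the higher in 2 of 3 CRE libraries and in all 3 CRE + VAF347 libraries (504 to 534 against 334 to 352 TPM). By the means *GLB1* ranked 20 of 37 with CRE, between *ATP6V1H* and *GLA*, whose CRE values overlapped with its own. With CRE + VAF347 it ranked 23, between *NEU1* and *IDS*, where it overlapped with *NEU1* and not with *IDS*. Summed over all 37 members, the level was 5581, 5749 and 6304 TPM with CRE and 5518, 5406 and 5461 TPM with CRE + VAF347. The third CRE library was the highest and the groups did not overlap, and this sum was not tested. The 8 proteases made up 1522, 1597 and 1813 TPM of it with CRE and 1463, 1411 and 1384 TPM with CRE + VAF347.

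**Figure D4:**
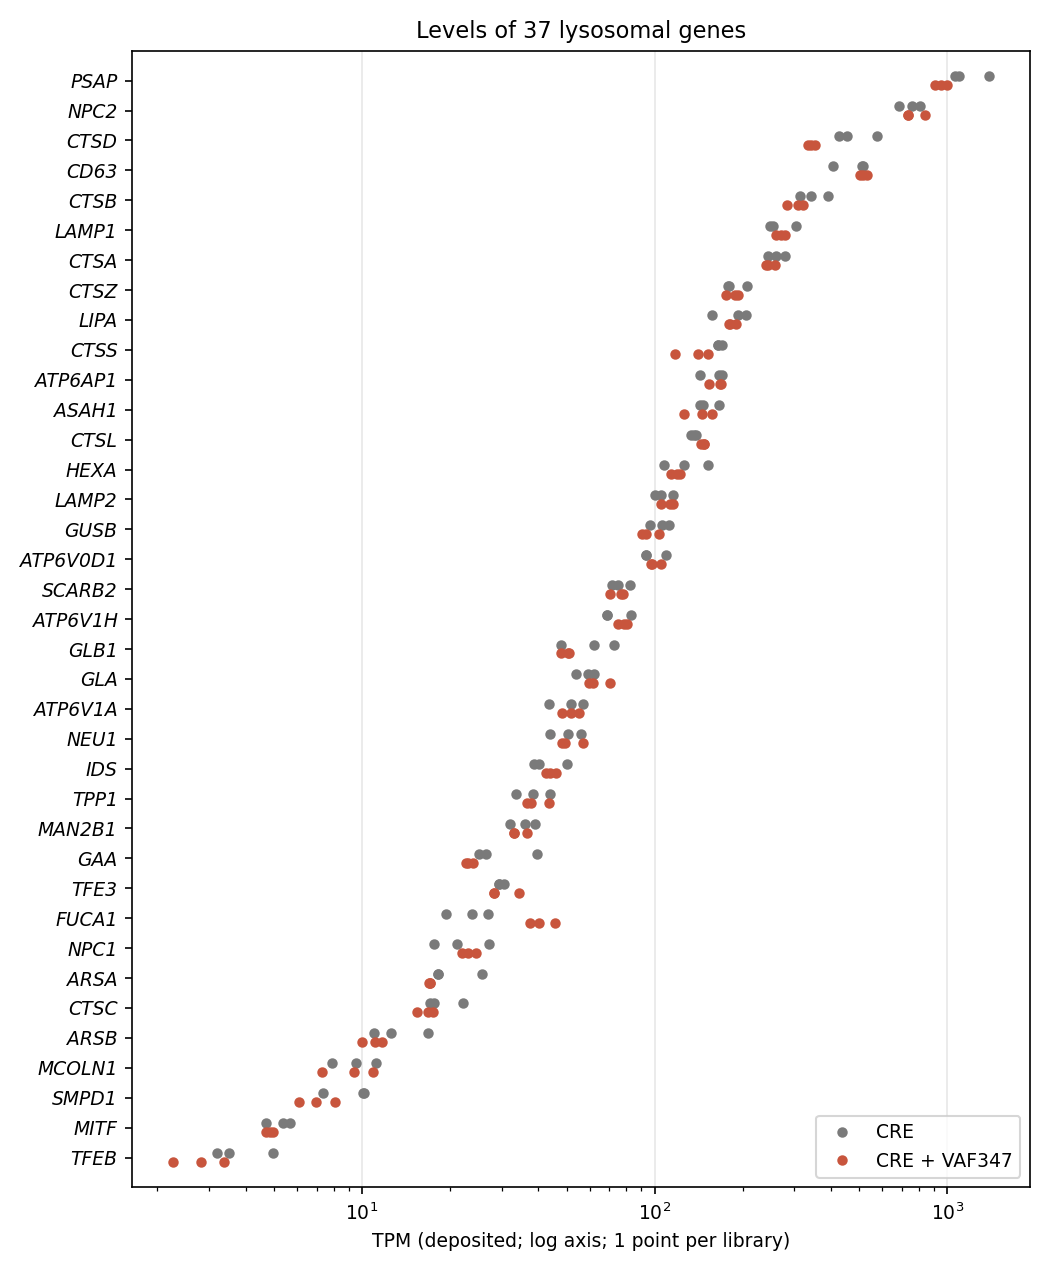
Deposited TPM (horizontal log axis) of the 37 lysosomal genes in each library (1 point per library, by group), in order of the CRE mean. *PSAP*, *NPC2*, *CTSD* and *CD63* are at the top and *TFEB* at the bottom, and the *FUCA1* and *CTSD* groups do not overlap.

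Base composition moved with the fold changes. Over 11110 genes with a mean of more than 3 log2 CPM, the log2 fold change was lower at higher GC content of the transcripts (Spearman's rho -0.36, a description across genes, which share the 6 libraries and are no independent replicates). Over the 37 members rho was -0.35. The 5 members over 60% GC were *GAA*, *ARSA*, *CTSD*, *TFEB* and *MCOLN1*, 4 of them with log2 fold changes below 0 and with a median of -0.36. With an offset that removes the trend with GC, rho over the members was -0.03 and that median was -0.28. *CTSD* (63.5% GC) then had a log2 fold change of -0.41 (edgeR adjusted p = 0.00916), *GAA* -0.28 (adjusted p = 0.174), and *FUCA1* (48.3% GC) 0.86. Both calls were thus also made with the offset.

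**Figure D5:**
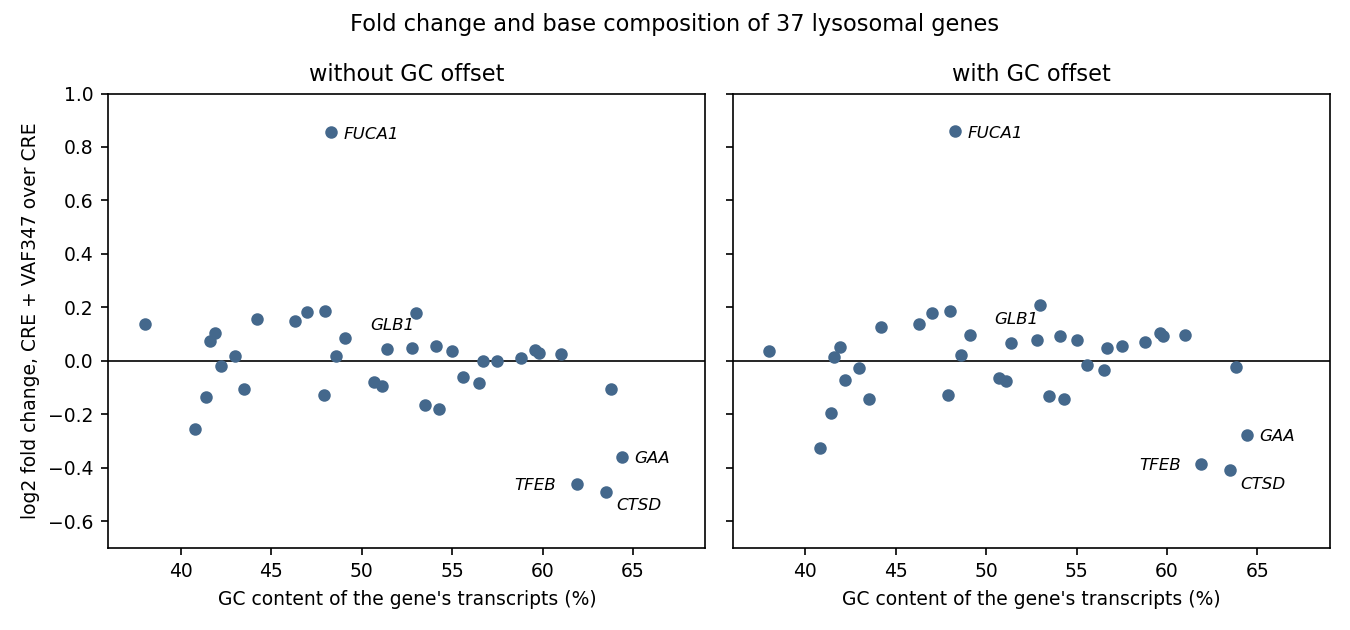
Log2 fold change of the 37 lysosomal genes, CRE + VAF347 over CRE, against the GC content of their transcripts in percent, without (left) and with (right) an offset for GC. *GAA*, *CTSD* and *TFEB* at the GC-rich end move toward 0 with the offset, and *FUCA1* stays near 0.86.

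Other genes of the lysosome were examined in the same fit. Of 46 further hydrolases and hydrolase-processing genes, 44 were tested. By edgeR 1 rose and 2 fell, against 5.42% of all genes called in either direction (median log2 fold change 0.00). *PPT2*, a thioesterase, rose from 42.9 ± 2.61 to 53.1 ± 2.05 CPM (SD, n = 3; log2 fold change 0.31, adjusted p = 0.032 by edgeR and 0.1 by DESeq2). *CTSH*, an aminopeptidase of the cathepsin family, fell from 113.2 ± 4.55 to 90.9 ± 4.45 CPM (-0.32, adjusted p = 0.0144). *PPT1*, the thioesterase that removes palmitate from proteins, fell from 366.8 ± 9.37 to 295.0 ± 23.4 CPM (-0.31, adjusted p = 0.0231).

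Of 17 further proton pump subunits tested, edgeR and DESeq2 called 0, and 5 had an unadjusted p under 0.05, against 20.8% of all genes (median log2 fold change 0.09, with 12 above 0). Of 39 membrane and sorting proteins, *OSTM1*, the partner of the lysosomal chloride transporter, rose from 27.9 ± 2.11 to 36.6 ± 1.40 CPM (log2 fold change 0.39, edgeR adjusted p = 0.0205). *ABCB9*, a lysosomal peptide transporter, fell from 48.1 ± 1.01 to 39.4 ± 1.33 CPM (log2 fold change -0.29, adjusted p = 0.0327), and the median of that list was 0.06. DESeq2 called 0 of these 39, and 8 had an unadjusted p under 0.05 in edgeR, against 20.8% of all genes. Adding 21 genes of TFEB regulation and autophagy, 7 of 121 tested genes outside the 37 members were called, 3 higher and 4 lower (5.79%, against 5.42% of all genes), with a median of 0.02. The number of edgeR calls on these lists depended on single libraries, as did the share of all genes called. It was 0 without the third CRE + VAF347 library (1.96% of all genes) and 8 without the third CRE library (8.26%). In the former fit 18 had an unadjusted p under 0.05, for which the share of all genes was not worked out.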

How the data were processed

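Poly(A) RNA was sequenced paired-end from 6 HBEC libraries, 3 with CRE and 3 with CRE + VAF347, grouped by the sample labels, which name the columns. The authors made the deposited expected counts with Salmon, given per gene and not scaled for depth, and the deposited TPM from the same step (1000000 per library). The submitters' processing notes name hg38, while the Salmon version, annotation and strand setting are not given in the sources used here. A deposited table of the authors' DESeq2 comparison (log2 fold changes, p-values, mean normalized counts) was not used.

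Counts were rounded (25.2% of non-zero values were not whole within 0.01) and fitted with edgeR 4.0.16 in R 4.3.3 (filterByExpr, TMM, quasi-likelihood F test, Benjamini-Hochberg over all genes tested). CPM is TMM-scaled. Standard errors are the log2 fold change divided by the square root of F. Alternatives were DESeq2 1.42.0, DESeq2 size factors, other filters, the replicate number as a block, each library left out, length and GC offsets, and limma 3.58.1 on log2(TPM + 1) or log2(TPM + 0.1). The edgeR, DESeq2 and limma fits were tried on simulated counts with 200 genes changed by 1 on the log2 scale. Of these 192 to 196 were recovered, with 9 to 17 calls among unchanged genes. Each simulated gene kept a single length over the libraries and no trend with GC was added. The simulation therefore could not test the length and GC offsets, or TPM where lengths differ between libraries. Smaller changes, such as those of the members, were not simulated. Positions, overlaps and GC are from GENCODE 44, which held all 61228 names. Motifs were searched with Python 3.11.15.

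The 37 members and the gene lists were chosen with earlier results of these data known. Values in every library were to be given for called members, *GLB1*, *TFEB*, *TFE3* and *MITF*, and from other lists at most 5 called genes. The other genes shown by library, and the cystatins and cell markers named, were chosen after their values were seen. The labels do not say that libraries came from separate cultures, so p-values measure the spread between these libraries, which may be technical. Counting precision follows the 8873160 to 10750283 counts per library.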

Additional observations from a re-analysis of the deposited data

How the results depend on the processing

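With 3 libraries a group, a change had to lie well beyond its standard error to be called. *GAA* at -0.36 (SE 0.09, edgeR adjusted p = 0.0513) and *PSAP* at -0.18 (SE 0.06, edgeR adjusted p = 0.0845) were not called. *TFEB* and *SMPD1*, with 49 to 103 counts a library, were the least precise. *FUCA1* was called higher in every alternative except limma on log2(TPM + 1) without a filter, and *CTSD* lower in every alternative except the 3 limma fits. Of 592 alternative values of single members (37 members, 16 alternatives), 517 had the same direction and side of the threshold, 9 passed it newly, 4 no longer passed it and 62 changed sign, in 17 members, and none of these 62 was called. The causes were not tested.

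Against 2 members called, DESeq2's test gave 4, edgeR without a filter on low counts 4, limma on log2(TPM + 1) and on log2(TPM + 0.1) 1 each, limma on log2(TPM + 1) without a filter 0, and single libraries left out 2 to 5. Length offsets and the GC offset gave 2 each, against 1.92% and 4.27% of all genes. Those called with a log2 fold change over 0.5 were 1, and 0 in limma without a filter, with 1 to 2 when single libraries were left out (2 without library 1 or 2 of either group, *CTSD* then being past 0.5). Without the third CRE library 5 members were called (*GAA*, *CTSD* and *PSAP* lower, *FUCA1* and *IDS* higher), against 8.26% of all genes. The members' median of 0.02 was -0.0231, -0.0234 and -0.0231 in the 3 limma fits. Calls on the 4 other lists, 7 as reported, follow with the share of all genes called by the same fit. They were 3 with DESeq2's test (4.5%), 13 without a filter (5.56%), 4 with the GC offset (4.27%) and 1 with length offsets (1.92%). Each limma fit gave 0 (0.545%, 0.533% and 0.112%). In these limma fits 11, 12 and 11 had an unadjusted p under 0.05, where the share of all genes was not worked out. Single libraries left out gave 0 to 8. Among these were 2 without the second CRE library (3.21%), and 2, 1 and 0 without CRE + VAF347 library 1, 2 and 3 (2.43%, 2.16% and 1.96%). Over all genes, 833 calls became 559 with DESeq2, 1586 without a filter, 295 with length offsets, 87, 85 and 32 in the limma fits, and 305 to 1287 with single libraries left out.

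Deviations of libraries from their group means correlated at 0.046 to 0.104 within a replicate number and at -0.052 to -0.015 across numbers. All 6 libraries correlated best with their own number, but the correlations were weak. The labels do not say whether libraries of a number were paired, and 3 libraries a group cannot settle it. With the replicate block 726 genes, 2 members and 4 genes of the other lists were called.

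The sign changed for the following members, in log2 fold change. With length offsets, limma on log2(TPM + 1) and limma on log2(TPM + 0.1), *GLB1* was at -0.2362, -0.2617 and -0.2657, *MAN2B1* at -0.0146, -0.0516 and -0.0528, *MCOLN1* at -0.0032, -0.0477 and -0.0528, *SMPD1* at -0.3438, -0.3399 and -0.3774, *TPP1* at 0.0640, 0.0281 and 0.0289, and *ATP6V0D1* at 0.0620, 0.0230 and 0.0232. In the 2 limma fits *CTSZ* was at -0.0202 and -0.0203, *SCARB2* at -0.0231 and -0.0234, and *LIPA* at -0.0053. With the GC offset *SCARB2* was at -0.0267 and *ATP6V0D1* at 0.0487. *ATP6V0D1* was at 0.0005 with DESeq2's test and with at least 10 counts in every library and at 0.0009 with DESeq2 size factors, and *ATP6AP1* at -0.0006 without a filter. With single libraries left out, the ranges were -0.0110 to 0.0969 for *NEU1*, -0.0103 to 0.0718 for *MAN2B1*, -0.1303 to 0.0023 for *GUSB*, -0.0982 to 0.1167 for *SMPD1*, -0.0369 to 0.1113 for *NPC1*, -0.0470 to 0.1789 for *NPC2*, -0.0460 to 0.0346 for *TFE3*, -0.0046 to 0.1413 for *LIPA*, -0.0095 to 0.2829 for *CD63*, -0.0710 to 0.1232 for *MCOLN1*, -0.0676 to 0.0270 for *ATP6V0D1*, -0.0241 to 0.0265 for *ATP6AP1* and -0.0782 to 0.0038 for *CTSC*.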

Other observations

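Autophagy delivers cargo to lysosomes, and its genes were tested beside the lysosomal members. Of 21 genes of TFEB regulation and autophagy, 1 rose and 1 fell by edgeR (median log2 fold change 0.01). Among all genes 5.42% were called in either direction. *MAP1LC3B*, which encodes the LC3 protein that is coupled to autophagosome membranes, had 74.6, 70.6 and 73.2 CPM with CRE and 92.7, 90.4 and 91.3 CPM with CRE + VAF347. Every VAF347 library was higher, and the log2 fold change was 0.33 (SE 0.06, edgeR adjusted p = 0.00808). *ATG9B*, a scramblase of the autophagosome membrane, fell from 6.84 ± 1.19 to 4.14 ± 0.602 CPM (SD, n = 3; log2 fold change -0.73, edgeR adjusted p = 0.0475). DESeq2 called *MAP1LC3B* (adjusted p = 0.0109) and not *ATG9B* (0.172), and edgeR called neither without the third CRE + VAF347 library (adjusted p = 0.0509 and 0.176).

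Of 13 cathepsin and serine protease inhibitors, 4 were expressed well enough to be tested. The cystatins *CST3*, *CST6* and *CSTB*, inhibitors of cysteine cathepsins, had log2 fold changes of 0.10, 0.04 and 0.06 and did not pass the test. *CSTB* was spread over 86.6 to 145.5 CPM within the CRE group, with the third library lowest. *SERPINA3*, an inhibitor of chymotrypsin-like proteases, fell from 2.89 ± 0.603 to 0.934 ± 0.554 CPM (log2 fold change -1.64, edgeR adjusted p = 0.0257). At this low level DESeq2 gave no adjusted p, and edgeR did not call it without the third CRE + VAF347 library (adjusted p = 0.132).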
